A study of Mus musculus with 26 samples.

Results

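The 10 genes described here encode the chromatin enzymes, or subunits of them, that 4 of the 5 inhibitors of the study act on. They were taken by name: Ezh1, Ezh2, Eed and Suz12 for UNC1999, Ehmt1 and Ehmt2 for UNC0642, Kdm1a for GSK2879552, and Hdac1, Hdac2 and Hdac3 for Romidepsin. Each symbol matched 1 Ensembl identifier among the 37991 genes of the count table, and all 10 passed the filter on low counts in all 5 comparisons. The question was whether blocking an enzyme changed the amount of its own transcript, or of the transcripts of the other enzymes.

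All retinas came from rd10 mice (B6.CXB1-Pde6brd10/J), whose rods degenerate because of a mutation in Pde6b, a rod phosphodiesterase gene. Injections into the peritoneum began at PN9, and tissue was taken at PN24. Every control mouse was rd10, and the methods of the study give saline as the control injection. The whole-retina groups held 4 saline and 2 DZNep libraries, 3 saline and 3 UNC1999 libraries, 2 saline and 2 UNC0642 libraries, and 3 saline and 3 Romidepsin libraries. A further 2 saline and 2 GSK2879552 libraries were made from rods sorted by FACS from rd10 mice crossed with B6.Cg-Tg(Nrl-EGFP)1Asw/J, a line whose rods are marked by green fluorescence under the promoter of the rod gene Nrl. The sample labels describe 1 stranded library kit throughout, whereas the methods of the study give another kit for the sorted rods. UNC1999 was dissolved in a mixture of DMSO, polyethylene glycol, detergent and saline. Its controls are described as saline in the methods of the study and as diluent elsewhere in it, so whether they received that mixture is not settled here, and if they did not, compound and solvent cannot be told apart. Mice of both sexes were used, and the sex of each library is not given in the labels.

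Polycomb repressive complex 2 (PRC2) methylates histone H3 at lysine 27, a mark of silenced genes, through its catalytic subunit EZH2 or the paralog EZH1, and it needs the core subunits EED and SUZ12. EZH2 prevails in dividing cells and EZH1 in cells that have left the cell cycle. EHMT2 and EHMT1 (the latter also called GLP) work as a pair that methylates histone H3 at lysine 9. KDM1A (LSD1) removes methyl groups from lysine 4 in the CoREST complex, together with the class I deacetylases HDAC1 and HDAC2, while HDAC3 acts in the NCoR and SMRT complexes. UNC1999 inhibits EZH2 and EZH1, UNC0642 inhibits EHMT2 and EHMT1, GSK2879552 inhibits KDM1A, and Romidepsin inhibits class I deacetylases. DZNep blocks S-adenosylhomocysteine hydrolase and so hampers methyltransferases in general, PRC2 among them.

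The reads counted on genes numbered 13732959 to 36354094 in a library of whole retina and 7289460 to 19864491 in 1 of sorted rods. The 10 genes had between 172 and 6473 counts in a library, far above the floor of 3 counts. Values per library are given as CPM, counts scaled to a common library size with TMM factors set within each experiment. Rod transcripts marked the sorted libraries: the 16 genes of a rod list summed to 61980 and 95230 CPM in the control rods, and the 8 of 13 microglia genes that passed the filter summed to 29.3 and 43.4 CPM. Müller glia and gliosis genes summed to 329.6 and 507.6 CPM there, against 6135 to 10330 CPM in the control retinas. The sum of 9 bipolar cell genes, 1014 and 1264 CPM, was below the 1721 to 2453 CPM of the control retinas, while that of 9 cone genes, 2888 and 4284 CPM, was above the 1533 to 2755 CPM found there. Of 10 genes of a retinal pigment epithelium (RPE) list, 4 (Rpe65, Ttr, Tyr and Mlana) were at 0 in all 4 rod libraries. The part of these other cells in the levels of the 10 genes in sorted rods was not tested.

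**Figure D1:**
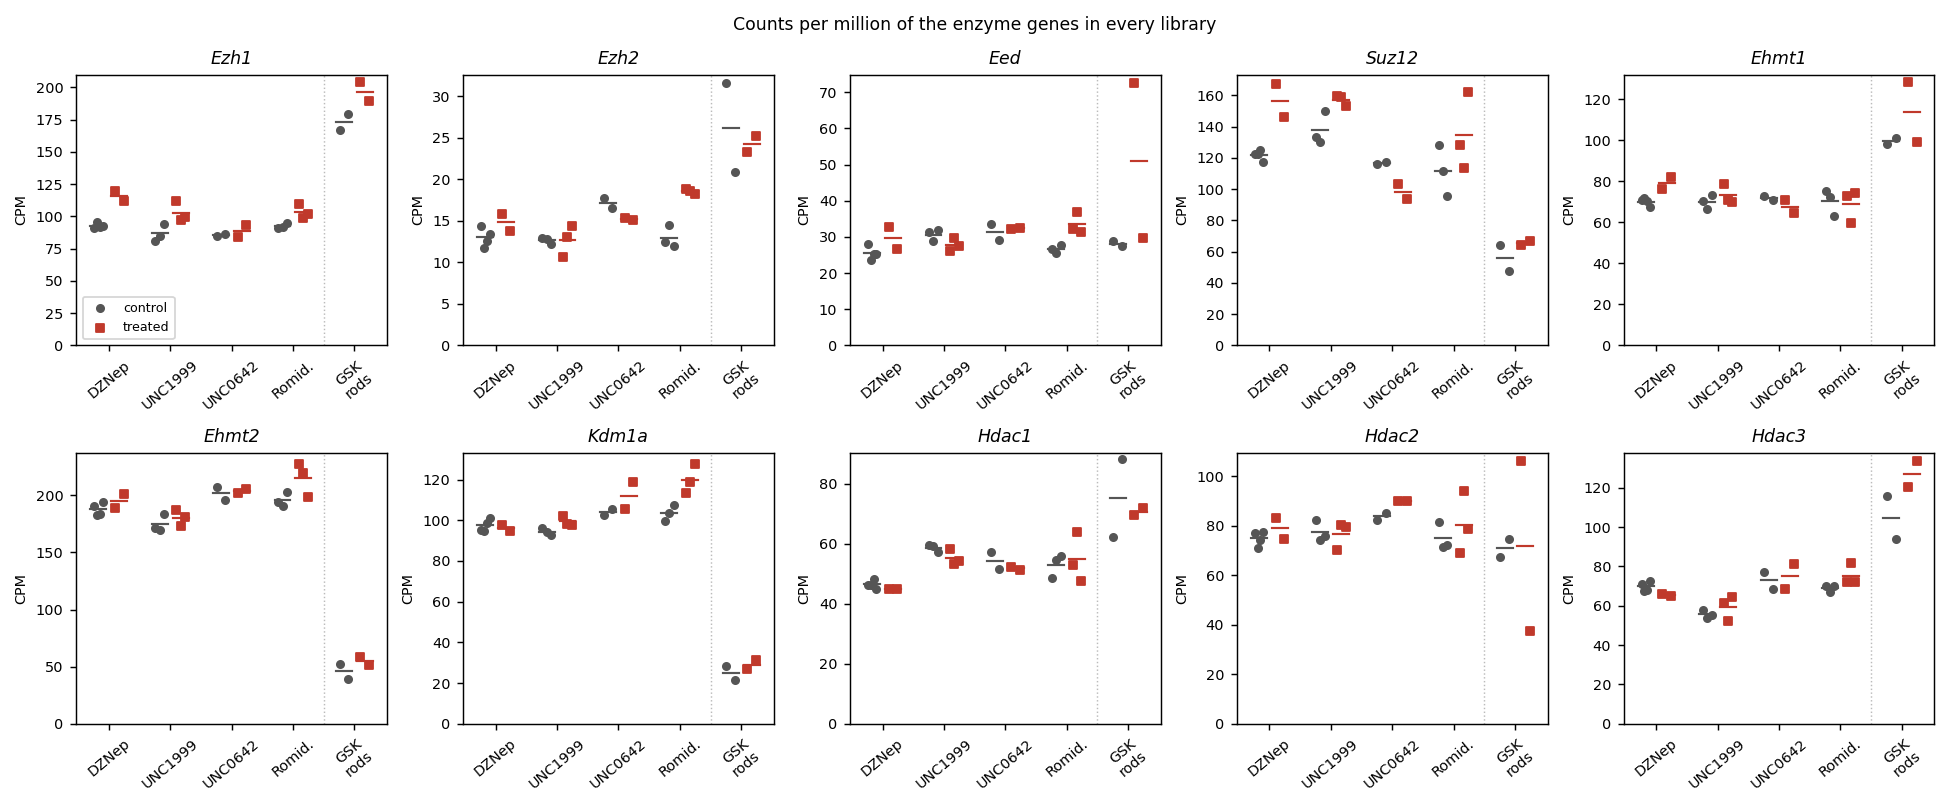
Level of each of the 10 genes in every library, in TMM-scaled CPM on a linear axis from 0, with grey circles for saline controls, red squares for treated libraries and a bar at each group mean. Treated and control libraries lay close together for most genes, Ezh1 and Suz12 stood higher after DZNep, Ezh2 stood higher after Romidepsin, and 1 treated rod library stood apart for Eed.

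The levels of the 10 genes in the controls were compared per length of exon, as RPKM, the CPM divided by the exon length in kilobases. In the 12 control retinas Ehmt2 (ENSMUSG00000013787, chromosome 17 from 35035414 to 35050997 in NCBIM37) had the highest level of the 10, 34.4 RPKM ± 1.27 (SD, n = 12). Ezh2 (ENSMUSG00000029687, chromosome 6 from 47480273 to 47545340) had the lowest, 2.19 RPKM ± 0.233 (SD, n = 12), with libraries from 1.88 to 2.67 RPKM. Each of these genes was apart from its neighbour in the order of levels in every control retina.

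The other 8 genes lay between them with ranges that overlapped from each neighbour to the next. Mean RPKM was 24.9 for Suz12, 19.2 for Kdm1a (ENSMUSG00000036940, chromosome 4 from 136106455 to 136158638), 17.2 for Hdac2 (ENSMUSG00000019777, chromosome 10 from 36694350 to 36721695) and 16.5 for Hdac3 (ENSMUSG00000024454, chromosome 18 from 38095498 to 38114642). It was 15.2 for Hdac1 (ENSMUSG00000028800, chromosome 4 from 129193348 to 129219957), 12.6 for Eed, 12.1 for Ezh1 and 9.89 for Ehmt1. The order between the extremes depended on the length used: with the longest transcript in place of all exons, 2 of the 10 genes kept their rank, and these were Ehmt2 and Ezh2. The spread over control retinas was smallest for Kdm1a, with a coefficient of variation of 2.80%, and widest for Suz12, with 13.8%.

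Among the paralogs, the level of Ezh1 per length was 5.61 times that of Ezh2 ± 0.858 (SD, n = 12 control retinas), and no control retina had a ratio under 3.99. With the longest transcripts as lengths this ratio was 4.25. The level of Ehmt2 per length was 3.49 times that of Ehmt1 ± 0.282 (SD, n = 12), whereas Hdac2 and Hdac1 had nearly equal levels, with a ratio of 1.14 ± 0.132 (SD, n = 12). With the longest transcripts the ratio of Hdac2 to Hdac1 was 0.931, so its side of 1 depended on the length used.

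The control rods had another order. Hdac3, at 26.0 RPKM, and Ezh1, at 23.3 RPKM, led the 10 genes, and Kdm1a at 4.78 RPKM and Ezh2 at 4.23 RPKM came last. The ranges of Hdac3 and Ezh1, and of Kdm1a and Ezh2, overlapped between the 2 libraries of each. With the longest transcript as length, Ezh1 (41.2 RPKM), Hdac1 (36.8) and Hdac3 (29.2) led, and Kdm1a (8.18) came last below Ezh2 (9.88). For 7 of the 10 genes both rod libraries lay outside the range of the 12 control retinas. The CPM of Ehmt2 in rods was 0.243 times that in retinas and that of Kdm1a 0.250 times, while the CPM of Ezh1 was 1.92 times and that of Ezh2 1.93 times the level in retinas. Suz12 stood at 0.456 times its retinal level and Hdac3 at 1.58 times. The ratio of Ehmt2 to Ehmt1 per length was 0.599 in the control rods (0.506 and 0.691). These are descriptions without a test, since mouse line, sorting and library kit differed together between rods and retinas and cannot be told apart.

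**Figure D2:**
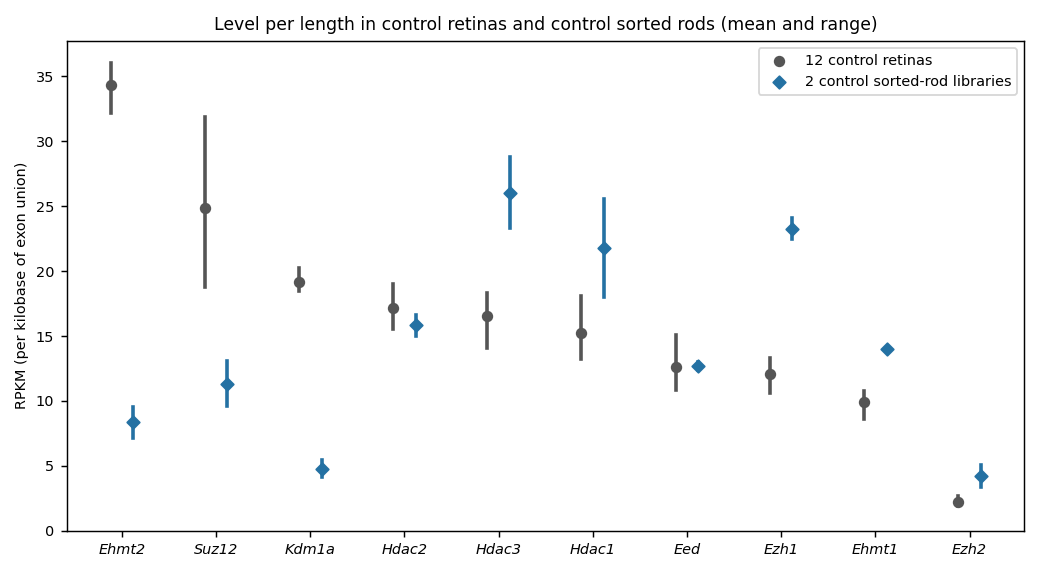
Level per length of the 10 genes, as RPKM on the union of exons, in 12 control retinas (grey circles) and 2 control libraries of sorted rods (blue diamonds), with lines for the range over libraries and genes ordered by retinal mean. Ehmt2, Suz12 and Kdm1a stood lower in the rod libraries, and Ezh1, Hdac3, Ehmt1 and Ezh2 stood higher.

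After DZNep, of 10 genes 3 were called at an adjusted p under 0.05 by edgeR's quasi-likelihood test, Ezh1, Suz12 and Ehmt1, all higher, where 22.7% of the 16477 genes tested were called. The median log2 fold change of the 10 genes was 0.13, and that of all genes tested was -0.00057. Both treated libraries lay above every control for 3 of the 10 and below every control for 2, and such a separation was seen for 45.9% of the genes tested. The effect of DZNep less the mean effect of the other 3 inhibitors in whole retina was called for none of the 10 genes. A fit of all 22 retinas together called 1 of the 10 for DZNep and 3 for Romidepsin. The share of all genes called in that fit is not given here, so these counts cannot be set against it. All 3 changes were small, with a largest fold of 1.29, and none of the 10 passed the threshold of 1 on the absolute log2 scale that the study added.

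Ezh1 (ENSMUSG00000006920, chromosome 11 from 101052429 to 101087777), the catalytic subunit of PRC2 in non-dividing cells, had 91.0, 95.7, 91.6 and 93.0 CPM in the 4 controls and 119.7 and 111.9 CPM in the 2 DZNep retinas. Both treated retinas stood above all controls, with a gap wider than the spread of the controls. Its log2 fold change was 0.32 (95% interval 0.22 to 0.43, adjusted p = 0.00219 by edgeR's quasi-likelihood test). With each library left out in turn it ranged from 0.27 to 0.37 and kept its call in 6 of 6 fits.

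Suz12 (ENSMUSG00000017548, chromosome 11 from 79806608 to 79847625), the core subunit without which PRC2 falls apart, had 122.5, 122.8, 125.1 and 117.4 CPM in controls and 167.4 and 146.0 CPM after DZNep. The groups did not overlap, and the treated pair differed from each other by more than the controls did. Its log2 fold change was 0.37 (95% interval 0.23 to 0.50, adjusted p = 0.00322 by the same test), with 0.26 to 0.46 over the fits that left out 1 library, all 6 with a call. When all 22 retina libraries were fitted together, the log2 fold change of Suz12 was 0.37 with an adjusted p of 0.0520, so that its call was lost.

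The other PRC2 genes were not called. Ezh2 had 14.3, 11.7, 12.6 and 13.4 CPM in controls and 15.8 and 13.8 CPM after DZNep, so the groups overlapped. The log2 fold change of Ezh2 was 0.20 (95% interval -0.04 to 0.43, adjusted p = 0.208). Eed (ENSMUSG00000030619, chromosome 7 from 97103166 to 97129493), which binds the methylated lysine 27 and stimulates the enzyme, had a log2 fold change of 0.23 (95% interval 0.01 to 0.45, adjusted p = 0.119), and its 2 treated libraries, at 32.9 and 26.6 CPM, lay on either side of the highest control at 28.1 CPM. The value of Eed rested on treated replicate 1: the log2 fold change was 0.057 without it, and 0.36 with an adjusted p of 0.0473, a call, without treated replicate 2.

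Ehmt1 (ENSMUSG00000036893, chromosome 2 from 24646289 to 24775129) had 70.8, 71.6, 70.3 and 67.6 CPM in controls and 76.2 and 82.2 CPM after DZNep. The groups did not overlap, and the gap between the lowest treated and the highest control library was about as wide as the spread of the controls. The log2 fold change was 0.17 (95% interval 0.06 to 0.29, adjusted p = 0.0381). The call was weak: the adjusted p was 0.0680 by the likelihood ratio test and 0.0966 by DESeq2, and 1 of 6 fits with a library left out called it. Its partner Ehmt2 had a log2 fold change of 0.06 (95% interval -0.05 to 0.16).

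The remaining 4 genes were near their control level. Kdm1a had a log2 fold change of -0.02 and Hdac2 of 0.08. Hdac1 had 44.9 to 48.1 CPM in controls and 44.9 and 44.7 CPM after DZNep, just below all controls, with a log2 fold change of -0.05 (95% interval -0.17 to 0.07). Hdac3 was also below all controls in both treated retinas, at 66.2 and 65.1 CPM against 67.7 to 72.7 CPM, with a log2 fold change of -0.09 (95% interval -0.20 to 0.02, adjusted p = 0.226).

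Rod markers moved with these results. After DZNep all 16 genes of the rod list were called higher, by 1.09 on the log2 scale at the median, and their summed level was 64310 and 66100 CPM against 21510 to 35580 CPM in controls. Of 9 Müller glia and gliosis genes 7 were called lower. All 13 microglia genes had negative values, with a median of -0.85. The quasi-likelihood test called 3 of them lower, the likelihood ratio test called 7 and DESeq2 called 6. Of 9 bipolar cell genes 6 were called lower and 1 higher, of 9 cone genes 3 were called lower, and of 15 genes of amacrine, horizontal and ganglion cells 6 were called lower, with negative values for all 15. Of the 10 RPE genes 5 were called higher and 1 lower, with a median log2 fold change of 1.32. No gene of these lists was at 0 in all 6 libraries. The lens transcripts that passed the filter summed to 56.1 CPM in 1 treated retina and to 2.92 CPM in the other, against at most 4.46 CPM in controls. Ezh1 and Ehmt1 had higher levels, and Suz12 a lower level, in sorted rods than in retinas, as given above. The part of cell content in the changes of Ezh1, Suz12 and Ehmt1 was not tested, and in bulk tissue fewer cells of a type and less RNA per cell cannot be told apart.

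**Figure D3:**
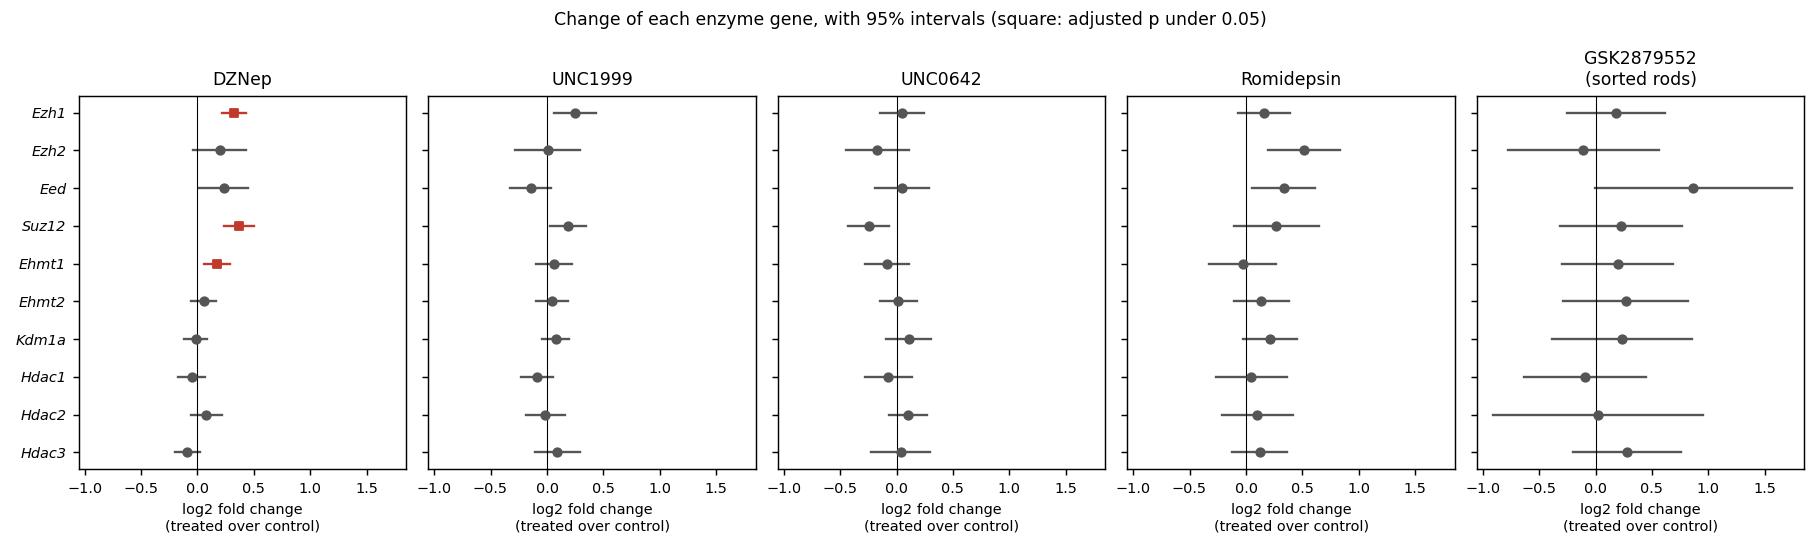
Log2 fold change of each of the 10 genes, treated over control, in each of the 5 experiments, with 95% intervals from edgeR's quasi-likelihood fit and red squares where the adjusted p was under 0.05. Ezh1, Suz12 and Ehmt1 after DZNep are the 3 called changes, all under 0.40, and the intervals are widest in the sorted rods.

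The stretches just before the start sites of the 3 genes called after DZNep, and of Ezh2, are printed here because 3 were called after DZNep and Ezh2 had the called difference between inhibitors, under Romidepsin. Of the 10 genes, 8 had an entry in the RefSeq promoter table (GRCm38.p6), and the sequences shown were placed on NCBIM37 by an exact match found once on their chromosome. They run 5′ to 3′ on the strand of the gene and end at the base before the start site, 250 bases long for Ezh1 (chr11:101087778-101088027, minus strand), Suz12 (chr11:79806358-79806607, plus strand) and Ehmt1 (chr2:24775130-24775379, minus strand), and 153 bases long for Ezh2 (chr6:47545030-47545182, minus strand), where 97 bases farther upstream belong to an exon of another Ezh2 transcript and were left out. Capitals mark matches, on either strand, to any of 6 short motifs: the CCAAT box (CCAAT), the GC box bound by SP1 (GGGCGG), 2 forms of the E2F site (TTTGGCGC and TTTCCCGC), the E-box (CACGTG) and a site of the photoreceptor factors CRX and OTX2 (TAATCC).
Ezh1: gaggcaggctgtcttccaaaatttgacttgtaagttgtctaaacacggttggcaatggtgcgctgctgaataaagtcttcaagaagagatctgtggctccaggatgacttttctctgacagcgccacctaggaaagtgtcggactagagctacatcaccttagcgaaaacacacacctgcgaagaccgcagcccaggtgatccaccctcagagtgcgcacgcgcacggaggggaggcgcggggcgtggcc
Suz12: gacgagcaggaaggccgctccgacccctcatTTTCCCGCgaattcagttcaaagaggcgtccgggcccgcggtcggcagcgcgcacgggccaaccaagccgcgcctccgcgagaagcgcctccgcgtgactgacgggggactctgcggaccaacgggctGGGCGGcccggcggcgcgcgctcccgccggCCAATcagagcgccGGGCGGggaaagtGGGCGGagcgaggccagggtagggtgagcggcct
Ehmt1: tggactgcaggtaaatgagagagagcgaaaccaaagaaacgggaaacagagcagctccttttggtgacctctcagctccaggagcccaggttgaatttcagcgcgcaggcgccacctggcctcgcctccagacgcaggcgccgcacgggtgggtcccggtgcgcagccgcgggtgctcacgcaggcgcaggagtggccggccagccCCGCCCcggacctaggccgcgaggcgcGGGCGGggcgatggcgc
Ezh2: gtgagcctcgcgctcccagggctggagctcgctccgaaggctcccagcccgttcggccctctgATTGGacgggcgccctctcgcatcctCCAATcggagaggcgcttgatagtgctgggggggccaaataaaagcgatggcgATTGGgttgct

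The 4 stretches differed in what they held. That of Ezh1 had none of the 6 motifs and a GC content of 55.2%, near the median of 52.4% over the 32851 promoters of the table. That of Suz12 had a GC content of 73.6%, 3 GC boxes, 1 CCAAT box 61 bases before the start and 1 E2F form, TTTCCCGC, 219 bases before it. Ehmt1 had 2 GC boxes, 44 and 17 bases before the start. Ezh2 had 3 CCAAT boxes, 90, 64 and 11 bases before the start, and no E2F form within its 153 bases. In windows of 250 bases, 33.8% of all promoters held a CCAAT box, 32.7% a GC box, 0.895% TTTCCCGC, 0.417% TTTGGCGC, 6.02% the E-box and 6.25% TAATCC. In windows of 153 bases, 24.8% held a CCAAT box. A match describes letters and says nothing about binding in these retinas.

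UNC1999, the inhibitor of EZH2 and EZH1, left none of the 10 genes past the threshold. By edgeR's quasi-likelihood test 0.602% of 15775 genes were called and 0 of the 10 genes, with 2 of the 10 at an unadjusted p under 0.05. The likelihood ratio test and DESeq2 also called 0 of the 10, against 1641 and 1459 of all genes. The 10 genes had a median log2 fold change of 0.05, beside -0.0020 over all genes tested.

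Ezh2, the main target, had 13.0, 12.8 and 12.2 CPM in controls and 10.7, 13.0 and 14.4 CPM after UNC1999. The treated libraries spread on both sides of the controls. Its log2 fold change was 0.0048 (95% interval -0.28 to 0.29), so these libraries leave room for a rise or a fall within that interval.

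Ezh1 had 81.1, 84.9 and 94.5 CPM in controls and 111.9, 97.5 and 99.5 CPM after UNC1999. All treated retinas stood above all controls, and control replicate 3 lay nearest to them. The log2 fold change was 0.25 (95% interval 0.06 to 0.43, adjusted p = 0.123). Without that control it was 0.31 with an adjusted p of 0.0284, and in the fit of all 22 retina libraries it was 0.25 with an adjusted p of 0.0324.

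Suz12 showed the same order, with 133.7, 130.5 and 150.2 CPM in controls and 159.7, 158.8 and 153.2 CPM after UNC1999. The groups were apart, again with control replicate 3 nearest to the treated. The log2 fold change was 0.19 (95% interval 0.03 to 0.34, adjusted p = 0.149, or 0.0239 without that control). Eed had a log2 fold change of -0.14 (95% interval -0.33 to 0.04).

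For 3 of the 10 genes all treated retinas lay above all controls, and for none below, whereas groups were apart for 27.4% of all genes tested. Beside Ezh1 and Suz12, Kdm1a was such a gene, with 92.5 to 96.3 CPM in controls and 97.8 to 102.2 CPM after UNC1999 and a log2 fold change of 0.08 (95% interval -0.04 to 0.20). The EHMT and HDAC genes had log2 fold changes between -0.09 and 0.09. Of 12 genes of proliferating cells 9 passed the filter, 8 of them with negative values, and their median was -0.74. None of these was called by the quasi-likelihood test, although 7 had an unadjusted p under 0.05. The likelihood ratio test and DESeq2 each called 3. All 16 genes of the rod list had positive log2 fold changes, with a median of 0.97, none called by the quasi-likelihood test but 14 by the likelihood ratio test and by DESeq2, and their sum was 56720 to 77480 CPM after UNC1999 and 22580 to 42240 CPM in controls. All 13 microglia genes had negative values, with a median of -1.37. The quasi-likelihood test called 2 of them lower, and the likelihood ratio test and DESeq2 each called 13. Of the 10 RPE genes 6 were called higher, and the part of these cells in the values of Ezh1 and Suz12 was not tested.

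The effects of DZNep and UNC1999 on the 10 genes were compared directly in a fit of all 22 retina libraries, each effect against its own controls. The DZNep effect less the UNC1999 effect was 0.08 for Ezh1 (95% interval -0.13 to 0.29), 0.18 for Suz12 (-0.15 to 0.51) and 0.19 for Ezh2 (-0.15 to 0.53). For Eed it was 0.37 (0.08 to 0.67), the largest of the 10, with an adjusted p of 0.410. None of the 10 differed by edgeR's quasi-likelihood test, which called 0.00579% of the 17274 genes tested for this difference.

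UNC0642 was the inhibitor of the EHMT2 and EHMT1 proteins. The paper gives low solubility in water and poor passage across the blood-brain barrier as a probable reason for its lower efficacy. How far the enzymes were blocked in these retinas was not measured here. By edgeR's quasi-likelihood test 0.0% of 16321 genes were called in this comparison of 2 against 2 retinas, although 2407 genes had an unadjusted p under 0.05, and the likelihood ratio test called 145 and DESeq2 152. Among the 10 genes 1 had an unadjusted p under 0.05, and none was called by any of the 3 tests, of which DESeq2 gave no adjusted p for Ezh2.

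The transcripts of both targets were near their controls. Ehmt2 had 207.1 and 196.3 CPM in controls and 202.4 and 205.8 CPM after UNC0642, with overlapping groups and a log2 fold change of 0.02 (95% interval -0.15 to 0.18). Ehmt1 had 72.6 and 70.8 CPM in controls and 70.8 and 64.5 CPM after UNC0642. The treated libraries lay below the controls, 1 of them by a very small margin, and the log2 fold change was -0.08 (95% interval -0.28 to 0.11).

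The largest difference was that of Suz12, which had 116.4 and 117.2 CPM in controls and 103.1 and 93.9 CPM after UNC0642. Its log2 fold change was -0.25 (95% interval -0.43 to -0.06, unadjusted p = 0.0162, adjusted p = 0.304). Ezh2 was also below its controls in both treated retinas, at 15.4 and 15.1 CPM against 17.7 and 16.5 CPM, with a log2 fold change of -0.17 (95% interval -0.45 to 0.11). Treated libraries were below the controls for 3 of the 10 genes and above for 1, Hdac2, and groups were apart for 52.1% of all genes tested, which 2 against 2 libraries make common. The rod list had a median log2 fold change of 0.29 in this comparison. All 13 microglia genes had negative values with a median of -0.61, none called by the quasi-likelihood test and 2 by the likelihood ratio test and DESeq2. All 7 immediate-early genes had positive values with a median of 0.66. None of the 7 was called by the quasi-likelihood test, 4 by the likelihood ratio test and 3 by DESeq2.

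Romidepsin, the deacetylase inhibitor, was followed by no called change among the 10 genes, its target genes included. By edgeR's quasi-likelihood test 0.748% of 16049 genes were called, 2 of the 10 had an unadjusted p under 0.05, and 0 were called. The likelihood ratio test and DESeq2 each called 1 of the 10, Ezh2, against 1185 and 1074 of all genes. The median log2 fold change of the 10 genes was 0.15, with 9 of 10 positive, beside -0.0088 over all genes tested. For 5 of the 10 genes, Ezh1, Ezh2, Eed, Kdm1a and Hdac3, all treated retinas lay above all controls, and groups were apart for 26.0% of the genes tested.

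The deacetylase genes had the following values. Hdac1 had 48.5, 54.5 and 56.0 CPM in controls and 53.0, 63.8 and 47.4 CPM after Romidepsin, with overlapping groups and a log2 fold change of 0.05 (95% interval -0.27 to 0.36). Hdac2 had 81.6, 71.3 and 72.3 CPM in controls and 68.8, 94.0 and 78.5 CPM after Romidepsin. The treated group spread more widely than the controls, and the log2 fold change of Hdac2 was 0.10 (95% interval -0.21 to 0.41). Hdac3 had 70.3, 67.2 and 70.1 CPM in controls and 71.9, 81.9 and 72.0 CPM after Romidepsin, apart by a small margin, with a log2 fold change of 0.12 (95% interval -0.12 to 0.36).

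Ezh2 had the largest difference of the 10 genes in whole retina. It had 12.5, 14.5 and 12.0 CPM in controls, from 182, 272 and 227 counts, and 18.9, 18.6 and 18.2 CPM after Romidepsin, from 334, 337 and 391 counts. The 3 treated retinas were close to each other and all above the highest control. The log2 fold change was 0.52 (95% interval 0.20 to 0.83), with an unadjusted p of 0.00550 and an adjusted p of 0.101 by edgeR's quasi-likelihood test. The adjusted p was 0.0492 by the likelihood ratio test, 0.0403 by DESeq2 and 0.00436 in the fit of all 22 retinas, and with each library left out in turn the log2 fold change ran from 0.46 to 0.61 without passing the threshold. The ratio of Ezh1 to Ezh2 per length was 4.64 after Romidepsin (4.42 to 4.83) and 5.99 in the controls (5.27 to 6.61).

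Eed and Kdm1a followed at a smaller size. Eed had 26.6, 25.5 and 27.8 CPM in controls and 32.1, 37.0 and 31.4 CPM after Romidepsin, with a log2 fold change of 0.33 (95% interval 0.05 to 0.61, adjusted p = 0.186). Kdm1a had 99.7, 103.6 and 107.7 CPM in controls and 113.5, 118.6 and 127.8 CPM after Romidepsin, with a log2 fold change of 0.21 (95% interval -0.03 to 0.45, adjusted p = 0.306). Both were called in the fit of all 22 retinas, with adjusted p of 0.0219 and 0.0178. Suz12 had a log2 fold change of 0.27 with a wide interval (-0.11 to 0.64), and its treated libraries at 113.3 to 162.5 CPM overlapped controls at 95.5 to 128.6 CPM.

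Markers that moved in the same comparison were the immediate-early genes, 5 of 7 called higher with a summed level of 527.4 to 967.0 CPM against 215.7 to 290.0 CPM in controls. Since EZH2 is linked to cell division, a list of 12 genes of proliferating cells was read beside it. None of the 12 was called by any of the 3 tests or had an unadjusted p under 0.05, their median log2 fold change was -0.23, and their sum of 115.8 to 151.8 CPM overlapped the 92.8 to 138.0 CPM of the controls. All 15 genes of the list for amacrine, horizontal and ganglion cells had negative values, with a median of -0.35, none called by the quasi-likelihood test and 3 by either of the others. Of the 16 rod genes 15 had positive values, with a median of 0.39, 9 at an unadjusted p under 0.05, none called by the quasi-likelihood test and 5 by either of the others, and their sum was 28400 to 37830 CPM against 18360 to 29620 CPM in controls. Of 9 bipolar cell genes 8 were negative, with a median of -0.52 and 1 called lower, and of 13 microglia genes 12 were negative, with a median of -0.77 and 1 called lower. Of 9 cone genes 8 were negative, with a median of -0.72, and of 10 RPE genes 9, with a median of -0.93. None of these cone and RPE genes was called by the quasi-likelihood test, although 7 of each list had an unadjusted p under 0.05, and the likelihood ratio test called 5 cone and 6 RPE genes and DESeq2 4 and 5. Of 9 Müller glia and gliosis genes 7 were negative, with a median of -0.32, 6 at an unadjusted p under 0.05, none called by the quasi-likelihood test, 3 by the likelihood ratio test and 5 by DESeq2. The part of cell content in the values of Ezh2, Eed and Kdm1a was not tested.

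GSK2879552 was studied in sorted rods, where Kdm1a was among the least abundant of the 10 transcripts. Kdm1a had 28.2 and 21.3 CPM in control rods and 26.99 and 31.08 CPM in treated rods, with overlapping groups. Its log2 fold change was 0.23, with a wide 95% interval of -0.39 to 0.85 (adjusted p = 0.989 by edgeR's quasi-likelihood test). On simulated counts of this comparison that test called 0 of 100 genes changed by 1 on the log2 scale. A missing call therefore does not tell whether Kdm1a rose or fell. By edgeR's quasi-likelihood test 0.0% of 14478 genes were called, with 711 at an unadjusted p under 0.05, and the likelihood ratio test called 71 and DESeq2 43. None of the 10 genes was called by any of these tests or had an unadjusted p under 0.05.

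The median log2 fold change of the 10 genes was 0.21 in rods, beside -0.0093 over all genes, and standard errors ran from 0.19 to 0.41, larger than in any whole-retina comparison. Both treated libraries lay above both controls for 3 of the 10 genes, Ezh1, Eed and Hdac3, against groups apart for 33.2% of genes tested. Ezh1 had 167.2 and 179.3 CPM in control rods and 203.9 and 189.7 CPM in treated rods, with a log2 fold change of 0.18 (95% interval -0.25 to 0.62).

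Single libraries set the values of 2 genes in the treated rods. Eed had 28.9 and 27.4 CPM in controls and 72.4 and 29.8 CPM after GSK2879552, so 1 treated library was far above the other 3. Its log2 fold change was 0.87 (95% interval -0.0033 to 1.74), 0.09 without that library, and 1.37 with an adjusted p of 0.0117 when the other treated library was left out. Hdac2 had 67.4 and 74.6 CPM in controls and 106.0 and 37.5 CPM in treated rods, on either side of the controls, and its log2 fold change of 0.02 had a 95% interval of -0.91 to 0.95. In this comparison all 9 cone genes had negative log2 fold changes, with sums of 1546 and 2029 CPM in treated and 2888 and 4284 CPM in control rods, none called by the quasi-likelihood test and 2 by either of the others, and their part in the result was not tested.

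Whether a gene answered the inhibitor of its own enzyme in another way than the other inhibitors was tested in the 22 whole retinas, as the effect of 1 inhibitor less the mean effect of the other 3. For UNC1999 the other 3 include DZNep, which also hampers PRC2, so a response shared with DZNep would be partly subtracted. For UNC1999 the difference was -0.18 for Ezh2 (95% interval -0.45 to 0.10), 0.07 for Ezh1 (-0.10 to 0.24), 0.06 for Suz12 (-0.21 to 0.33) and -0.35 for Eed (-0.59 to -0.11, adjusted p = 0.154). For UNC0642 it was -0.16 for Ehmt1 (-0.39 to 0.07) and -0.07 for Ehmt2 (-0.25 to 0.11). For Romidepsin it was 0.12 for Hdac1 (-0.10 to 0.34), 0.05 for Hdac2 (-0.19 to 0.29) and 0.11 for Hdac3 (-0.10 to 0.32). None of these own-target differences was called by edgeR's quasi-likelihood test.

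**Figure D4:**
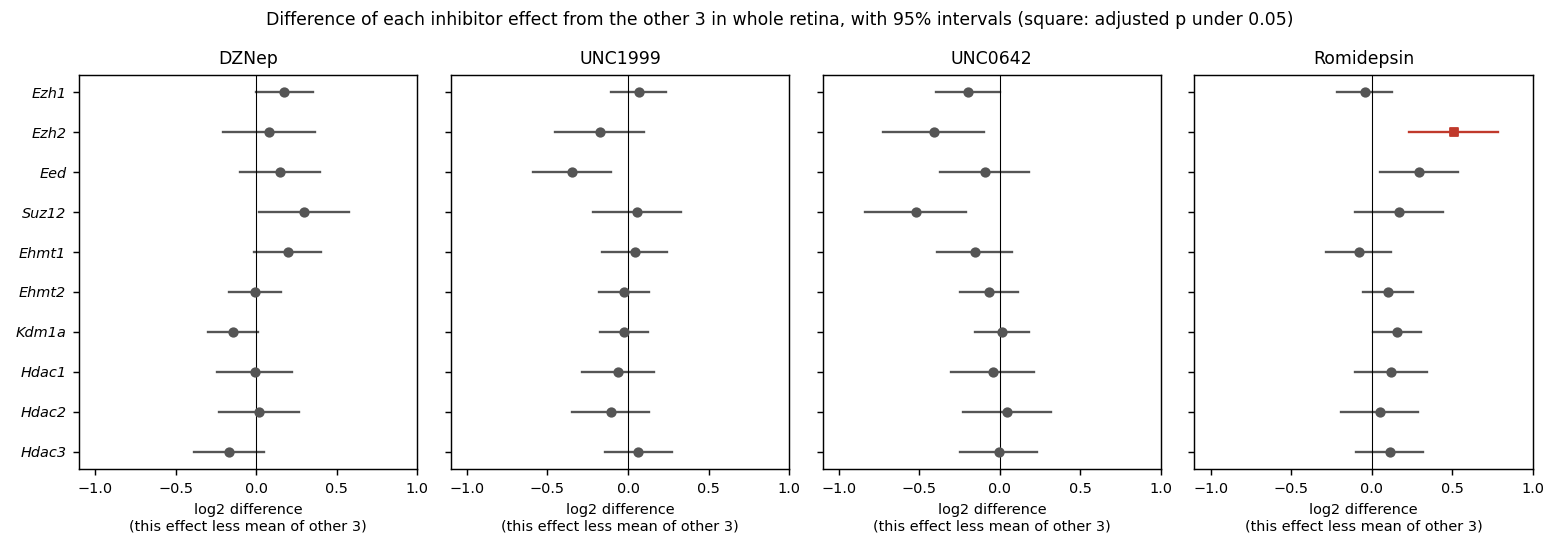
Effect of each inhibitor on the 10 genes in whole retina less the mean effect of the other 3, as a log2 difference with its 95% interval, from 1 fit of 22 libraries, with a red square where the adjusted p was under 0.05. Ezh2 under Romidepsin, at 0.51, is the called difference. The target genes of UNC1999, UNC0642 and Romidepsin have intervals that include 0, apart from Eed under UNC1999. Other intervals also exclude 0 without a call: Suz12 under DZNep (0.02 to 0.58), and Suz12 (-0.84 to -0.21) and Ezh2 (-0.73 to -0.10) under UNC0642. Under Romidepsin those of Eed (0.05 to 0.53) and Kdm1a (0.01 to 0.31) do so too.

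Of the 50 differences tested for the 10 genes over 5 contrasts, 1 was called, that of Ezh2 under Romidepsin. It was 0.51 (95% interval 0.23 to 0.78, adjusted p = 0.0439 by edgeR's quasi-likelihood test), and 2.81% of 17274 genes were called for Romidepsin. The 10 genes gave no call for UNC1999, where 0.301% of genes were called, nor for DZNep or UNC0642, where 0.00579% were called in each. The call of Ezh2 rested on a narrow margin: with each of the 22 libraries left out in turn the difference stayed between 0.45 and 0.59 and the adjusted p ran from 0.0330 to 0.139, with 8 of 22 fits under the threshold. The Ezh2 levels also differed between control groups, with means of 13.3, 13.3 and 12.7 CPM, scaled over all retinas together, in the controls of DZNep, UNC1999 and Romidepsin and 15.9 CPM in those of UNC0642. Suz12 under UNC0642 had the largest negative difference, -0.52 (95% interval -0.84 to -0.21, adjusted p = 0.250). Ezh2 under UNC0642 had one of -0.41 (95% interval -0.73 to -0.10, adjusted p = 0.33 by the same test). UNC0642 is among the inhibitors whose mean effect was subtracted from that of Romidepsin.

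The partners, paralogs and antagonists of the 10 genes were read from 9 lists of 107 genes, of which 105 passed the filter in each comparison. After DZNep, 36 of the 105 were called, 30 higher and 6 lower, a share of 34.3% beside 22.7% of all genes, with a median log2 fold change of 0.09. In the other 4 comparisons none of the 105 was called by the quasi-likelihood test, with 27, 18, 13 and 1 at an unadjusted p under 0.05 for UNC1999, UNC0642, Romidepsin and GSK2879552. The likelihood ratio test and DESeq2 each called 9 for UNC1999, 3 for Romidepsin and none for the other 2. Of all genes they called 1641 and 1459 of 15775 for UNC1999 and 1185 and 1074 of 16049 for Romidepsin.

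By role, after DZNep 2 of 7 PRC2 partners were called, both higher, and 6 of 18 genes of PRC1, the Polycomb complex that reads the lysine 27 mark, 3 higher and 3 lower. None of the 2 lysine 27 demethylases was called. Of 11 lysine 9 methyltransferases and partners 2 were called higher, and of 9 lysine 9 demethylases 4 were called higher, with a median of 0.29 and positive values for all 9. Of 10 LSD1 partners 4 were called higher and 1 lower, of 15 other deacetylases 5 higher and 1 lower, of 23 subunits of deacetylase complexes 8 higher and 1 lower, and of 10 acetyltransferases 2 higher.

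The clearest of these rose or fell in both treated retinas. Mta2, a subunit of the NuRD complex that holds HDAC1 and HDAC2, had 128.8 CPM ± 8.73 (SD, n = 4) in controls and rose to 191.3 CPM ± 7.65 (SD, n = 2) after DZNep, a log2 fold change of 0.57 (SE 0.06, adjusted p = 0.000878). Its paralog Mta1 fell from 84.9 to 71.9 CPM, a log2 fold change of -0.24 (adjusted p = 0.0184). Kdm3b, a lysine 9 demethylase, rose by 0.42 (adjusted p = 0.00105), and the class IIa deacetylase gene Hdac9 by 0.44 (adjusted p = 0.00135). Hdac6, which encodes a cytoplasmic deacetylase of tubulin, had a log2 fold change of -0.21 (adjusted p = 0.0151), and Pcgf3, a subunit of PRC1, had one of -0.25 (adjusted p = 0.0145).

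Likeness between genes was described by Pearson's r of log2 CPM over the 22 whole-retina libraries after the mean of each experiment had been subtracted. The libraries share tissue, treatment and cell content, so these values are descriptions. Ezh1 was most like Optn (r = 0.952) and Gnb5 (r = 0.944), the latter a G protein subunit of the complex that ends the light response in photoreceptors. Suz12 was most like Maml1 (0.939) and Zmym5 (0.937), Ehmt1 most like Ints1 (0.910), and Ezh2 most like Nfxl1 (0.881) and Mcam (0.873). Among the 10 genes the closest pairs were Suz12 with Ehmt1 (0.718) and Ezh2 with Eed (0.712), whereas Ezh1 and Ezh2 had an r of 0.298 and the catalytic partners Ehmt1 and Ehmt2 one of 0.015. For the rest of the genes the closest were Dnajb1 for Eed (0.852), Pi4k2a for Ehmt2 (0.873), Wdr45l for Kdm1a (0.881), Bckdk for Hdac1 (0.886), Dcun1d5 for Hdac2 (0.864) and Slc16a11 for Hdac3 (0.858).

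Reads of a few of these genes may be shared with genes on the other strand. Ezh2 and Suz12 share 174 and 178 exon bases with the antisense RNAs Gm17629 and Gm16706, which had 7.3 and 23.9 counts per library on average, against 302.3 for Ezh2 and 2426.3 for Suz12. Kdm1a overlaps Luzp1 without shared exon bases.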

How the data were processed

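The deposited values are raw counts of reads per Ensembl gene, without normalization, for 26 libraries. The authors made them by trimming with BBDuk, alignment by HISAT2 (version 2.2.1) to NCBIM37 and counting by HTSeq (version 0.11.2), whose strand setting is not given in the sources used here. Symbols, positions and exon lengths came from GENCODE M1 on the same build and matched 37205 of 37991 genes.

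Samples were grouped by their labels, and treated libraries were set against the saline ones of the same experiment. Genes were filtered with filterByExpr and scaled by TMM in edgeR 4.0.16 (R 4.3.3). The authors used edgeR's likelihood ratio test. Here the quasi-likelihood test was used, with p-values adjusted by the Benjamini-Hochberg method over all genes tested and a call at an adjusted p under 0.05. Standard errors were taken as the log2 fold change over the square root of F, and 95% intervals from the t distribution with the moderated degrees of freedom. Differences between inhibitors were contrasts in a fit of 22 retina libraries with a mean per group. RPKM values used the union of exons, and TMM factors within experiments ran from 0.938 to 1.06. Promoter sequences were read from a RefSeq table (GRCm38.p6).

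The labels call the replicates biological, and none states what replicates of the same number share. The p-values measure the spread between libraries, which may be partly technical. None of 23 replicate pairs were copies, since their chi-square per gene never fell under 3.89. The scripts were tested on simulated counts with 200 changed genes. Of 100 genes changed by 1 on the log2 scale, the quasi-likelihood test called 100 for DZNep, 92 for UNC1999 and 91 for UNC0642. It called 78 for Romidepsin and 0 for GSK2879552. Of 100 changed by 0.5 it called 69, 44, 47, 3 and 0 in the same order. For Romidepsin the likelihood ratio test called 94 and 16 of these, and 37 unchanged genes. A missing call thus does not show that a gene was unchanged, least of all in rods.

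Named genes are the 10 genes, up to 3 higher and 3 lower genes of the 9 chromatin lists per comparison (the smallest p among those called with groups apart), and the most similar genes by correlation. The 10 genes, the lists and this rule were chosen with earlier results of these data known. As alternatives, DESeq2 1.42.0, the likelihood ratio test, RLE factors, no filter, a block for replicate number, 1 fit of all retinas, a fold threshold, the longest transcript and each library left out were run. GSK2879552-treated whole retinas were not analysed here. Figures were drawn with matplotlib 3.10.9.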

Additional observations from a re-analysis of the deposited data

Results flagged for a closer look

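The effect of Romidepsin on Ezh2 was higher by 0.508 on the log2 scale than the mean effect of the other 3 inhibitors in whole retina, and it was singled out because the difference itself passed its test (adjusted p = 0.0439, edgeR's quasi-likelihood test, 22 libraries). All 3 treated retinas lay above all 3 controls. Immediate-early genes were called higher in the same comparison for 5 of 7 genes, and none of 12 genes of proliferating cells was called by edgeR or DESeq2 or had an unadjusted p under 0.05. The part of either in the value of Ezh2 was not tested.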

How the results depend on the processing

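Ezh1 and Suz12 kept their direction after DZNep under every alternative run, and Ezh1 kept its call under all 12 that used the adjusted p alone. The count of called genes after DZNep was 3, and it was 1 in the fit of all 22 retinas, 0 with the fold threshold and 2 to 3 with 1 library left out, the 3 without treated replicate 2 being Ezh1, Suz12 and Eed (adjusted p = 0.0473). After UNC1999 it was 0, 1 in the fit of all retinas (Ezh1) and 0 to 2 with 1 library left out, the 2 being without control replicate 3. After Romidepsin it was 0, 1 by the likelihood ratio test and 1 by DESeq2, and 3 in the fit of all retinas, whose share over all genes is not given here. In sorted rods it was 0, and 0 to 1 with 1 library left out, the 1 being Eed without treated replicate 2. The called differences between inhibitors numbered 1, and 0 to 1 over the 22 fits that left out a library, which were chosen after seeing the data. For the fits that left out a library and the fit of all retinas, the shares of all genes called are not given here. The counts from those fits therefore cannot be set against a share over all genes. With the longest transcript as length, 2 of 10 genes kept their rank in control retinas. Of 550 alternative fold changes 504 kept direction and side of the threshold, 10 lost a call, 10 gained one, and 26 changed sign, in 15 of the 50 gene and comparison pairs, none of them called. The cause of these changes was not tested.

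Replicate numbers were not used to pair the samples in the main fits. Deviations of same-numbered libraries correlated between -0.351 and 0.268, and with so few libraries in a group these values cannot show whether samples were paired. With a replicate block Ezh1 and Suz12 kept and Ehmt1 lost its call after DZNep (adjusted p = 0.221), so 2 of 10 were called. The block turned Kdm1a after DZNep to 0.018, Ezh2 after UNC1999 to -0.0054 and Hdac2 in rods to -0.16.

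With 1 library left out, sign changed within these ranges. After DZNep they were -0.041 to 0.0043 for Kdm1a and -0.0094 to 0.15 for Hdac2. After UNC1999 they were -0.094 to 0.11 for Ezh2 and -0.046 to 0.045 for Hdac2. After UNC0642 they were -0.027 to 0.12 for Ezh1, -0.048 to 0.15 for Eed, -0.022 to 0.054 for Ehmt2, -0.15 to 0.0087 for Hdac1 and -0.091 to 0.15 for Hdac3. After Romidepsin they were -0.10 to 0.063 for Ehmt1, -0.078 to 0.15 for Hdac1 and -0.025 to 0.20 for Hdac2. In rods they were -0.38 to 0.21 for Ezh2, -0.32 to 0.18 for Hdac1 and -0.91 to 0.58 for Hdac2. An arm left with 1 library was assumed to vary like the other.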
